A study of Mus musculus with 8 samples.

Results

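AP-1 is a family of dimeric transcription factors built from Fos, Jun, ATF, BATF and Maf proteins, and 10 of its subunit genes were followed in mouse muscle stem cells. They are Fos, Fosb, Fosl1, Fosl2, Jun, Junb, Jund, Atf3, Batf and Maff, chosen by symbol, and each matched 1 of the 45706 gene lines of the expression table. Muscle stem cells are the resident progenitors of skeletal muscle. They were sorted from hindlimb muscle of wild-type C57BL/6 females aged 8 to 12 weeks, as cells positive for α7-integrin and CD34 and negative for CD45, Sca1, CD31 and CD11b. RNA-seq was done on 3 libraries of cells kept for 48 h on a 12 kPa hydrogel (cultured replicates 1 to 3) and on 5 libraries of freshly isolated cells (fresh replicates 1 to 5). The labels list a medium with 20% fetal bovine serum for all 8 libraries. The sequencing run differed within the fresh group: replicates 1 to 3 were sequenced apart (run 1), while replicates 4 and 5 were on the lane of the cultured libraries (run 2).

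Fos proteins cannot bind DNA without a partner, and they pair with Jun proteins, which can also pair with each other. The dimers bind the TRE and CRE motifs of enhancers and promoters. Most subunit genes are immediate early genes: serum, stress and MAP kinase signalling switch them on without new protein synthesis, and their mRNAs are short-lived. In muscle, digestion of the tissue and sorting are known to induce Fos and Jun family genes in stem cells. Time since isolation and growth on the hydrogel both differ between the groups here, and their effects cannot be told apart.

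Expected counts summed to between 13919508 and 20068199 per library, and 19054 genes were tested. At least 1 count was seen for 15415 to 17852 genes in cultured libraries, against 20480 to 20898 in run-2 and 32710 to 34689 in run-1 fresh libraries. Summed levels of 8 muscle stem cell markers were 903 to 984 CPM in cultured and 4291 to 5398 CPM in fresh libraries, with 7 of 8 lower in culture. CPM is the usual count unit per library size, here with sizes scaled by TMM factors. Among lists for other cells, most markers were lower in culture for pericytes and smooth muscle, Schwann cells and fibro-adipogenic cells only. The sums in cultured and then fresh libraries were 33.7 to 51.6 and 806 to 3187 CPM for pericytes and smooth muscle (7 of 8 lower, Abcc9 and Kcnj8 at 0 in culture), and 413 to 587 and 631 to 1461 CPM for Schwann cells (7 of 8 lower, Sox10 and S100b at 0 in culture). Nearly all of the Schwann sum in culture was Ncam1, which muscle stem cells also express and which was not called, at 587, 516 and 409 CPM in cultured and 339 to 566 CPM in fresh libraries. The fibro-adipogenic sums were 24.8 to 35.9 and 1068 to 1641 CPM (6 of 8 lower, Ly6a at 0 in culture). Most of the fresh sum was Dcn, Col3a1, Dpt and Gsn. Ly6a had only 0 to 1.34 CPM and Pdgfra 1.11 to 13.3 CPM in fresh libraries, and neither was called. The sums were 1.70 to 46.9 and 84.6 to 124 CPM for endothelial cells (2 of 8 lower, Kdr, Egfl7 and Cldn5 at 0 in culture). For blood cells they were 0.255 to 5.92 and 25.3 to 71.4 CPM (2 of 8 lower, Adgre1, Lyz2, Csf1r, C1qa and Cd74 at 0 in culture). Most of the endothelial sum in cultured replicates 1 and 3 was Pecam1, which was not called (edgeR adjusted p = 0.0677). Pecam1 had 35.1, 0.103 and 38.1 CPM in cultured and 0.195 to 4.5 CPM in fresh libraries. Most of the fresh endothelial sum was Tek, at 52.8 to 88.8 CPM. Kdr, Egfl7, Cldn5, Adgre1, Csf1r, C1qa and Cd74 had at most 3.48 CPM in any fresh library. Lyz2 had 62.7 and 43.2 CPM in run-2 fresh libraries, most of the blood sum there. Muscle fibre markers summed to 11.4 to 77.6 CPM in cultured and 29.9 to 33.6 CPM in fresh libraries (3 of 8 lower, Myh2 at 0 in culture). Of these, Acta1 had 61.0, 15.3 and 7.03 CPM in cultured and 1.24 to 6.27 CPM in fresh libraries and was not called (edgeR adjusted p = 0.0637). Egfl7, Cldn5, Adgre1, C1qa and Cd74 could not be tested and still count among the 8 of their lists. For comparison, 18.0% of all genes tested were called lower and 8.87% higher. No marker of these lists was called higher in culture, and the part of other cells in the AP-1 levels was not tested. In bulk samples, fewer cells of a type and less RNA per cell cannot be told apart. No label ties a library to an animal or a culture dish, so the spread behind the p-values is that of these libraries and may be technical.

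After 48 h, 7 of the 9 AP-1 genes that could be tested were lower in cultured than in fresh cells, and Fosl1 alone among the 9 was higher. Over all genes tested, 18.0% were called lower and 8.87% higher, 26.9% in all (edgeR quasi-likelihood test, Benjamini-Hochberg adjusted p under 0.05). All cultured libraries lay below all fresh ones for 8 of the 9 genes, and for 26.1% of all genes tested. They lay above for Fosl1, and for 13.7% of all genes tested. The test compares cultured with run-2 fresh libraries, with the run-1 fresh libraries adding to the estimate of the spread. Batf had too few counts to be tested.

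**Figure D1:**
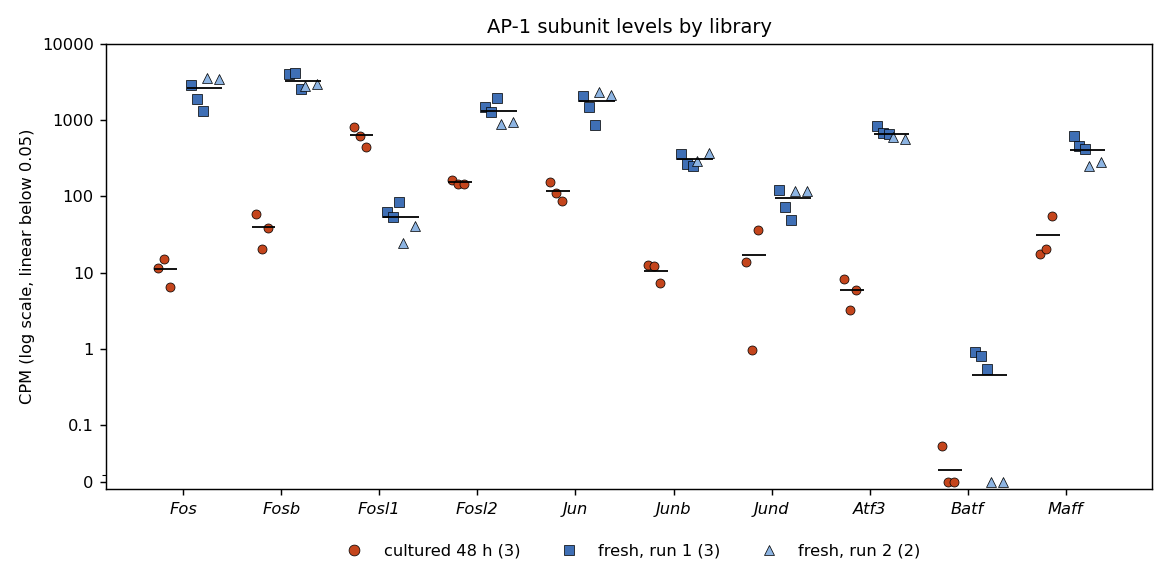
Level of each AP-1 subunit gene in each library, in CPM on a log axis that is linear below 0.05. Circles are the 3 cultured libraries, squares the 3 run-1 and triangles the 2 run-2 fresh libraries, and bars are group means. Cultured libraries lie below fresh ones for every gene except Fosl1, where they lie above, and Batf, where the groups overlap.

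Within the Fos family, the gene with the largest fold change was Fos, the prototype immediate early gene. It had 11.6, 15.3 and 6.47 CPM in cultured replicates 1 to 3, against 2869.8, 1922, 1319.6, 3634 and 3456 CPM in fresh replicates 1 to 5. The lowest fresh library stood 86.0-fold above the highest cultured one. The means were 11.2 ± 4.45 CPM in cultured and 2640.2 ± 996 CPM in fresh cells (SD, n = 3 and 5 here and below). Against the run-2 fresh libraries, as in all fold changes of culture below unless another set is named, the log2 fold change was -8.31 ± 0.50 (± SE), or 318-fold lower (edgeR adjusted p = 4.84e-05). Set against the run-1 fresh libraries alone, it was -7.45. Fos (ENSMUSG00000021250) lies on the plus strand of chromosome 12, 85473890 to 85477273, by GENCODE M21 coordinates on GRCm38 (mm10).

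Fosb encodes a close relative of Fos that is also spliced to a shorter protein. It had 59.3, 20.4 and 38.3 CPM in cultured replicates 1 to 3, against 4049.9, 4123, 2538, 2781 and 2943 CPM in fresh replicates 1 to 5. The cultured libraries spread over a 2.91-fold range and all stood at least 42.8-fold below every fresh library. Fosb fell by 6.18 ± 0.47 on the log2 scale, 72.7-fold (edgeR adjusted p = 0.000133). It lies on the minus strand of chromosome 7, 19302696 to 19310051.

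The bases before the starts of both genes are shown because CREB and ATF proteins, which switch on immediate early genes, bind the CRE, TGACGTCA, and its half-site TGACG. They are the 150 bases before the RefSeq start (GRCm38.p6), chr12:85473740-85473889 on the plus strand for Fos and chr7:19310046-19310195 on the minus strand for Fosb. Capitals mark TGACG on either strand.
Fos: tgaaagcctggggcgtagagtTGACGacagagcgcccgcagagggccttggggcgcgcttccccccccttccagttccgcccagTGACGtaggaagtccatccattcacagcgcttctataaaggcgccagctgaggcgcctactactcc
Fosb: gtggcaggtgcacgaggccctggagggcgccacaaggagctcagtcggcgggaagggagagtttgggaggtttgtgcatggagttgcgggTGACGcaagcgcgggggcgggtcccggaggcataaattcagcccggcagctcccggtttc
Fos held the half-site at 129 to 125 and at 66 to 62 bases before the start, and Fosb at 60 to 56 bases before it.

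Fosl1 moved the other way. It encodes FRA-1, a Fos protein without the strong activation domain of Fos, and is known as a later serum-response gene that AP-1 itself can switch on. It had 826, 625 and 443 CPM in cultured replicates 1 to 3, against 62.4, 54.4, 83.8, 24.8 and 41.2 CPM in fresh replicates 1 to 5. Every cultured library stood at least 5.29-fold above every fresh one. The means were 631 ± 192 CPM in cultured and 53.3 ± 22.2 CPM in fresh cells, and 33.0 ± 11.6 CPM in the run-2 fresh libraries alone (n = 2). Against these, the log2 fold change was 4.26 ± 0.42, or 19.1-fold higher (edgeR adjusted p = 0.000345). It was 3.29 against the run-1 fresh libraries alone and 3.57 with no term for run. Fosl1 lies on the plus strand of chromosome 19, 5447547 to 5455946. Its gene overlaps Ccdc85b on the other strand, which had 0.153 to 0.412 CPM in cultured and 0.316 to 0.935 CPM in fresh libraries, and reads of such a pair cannot be told apart unless counting used strand, which is not stated.

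Fosl2 encodes FRA-2 and fell least among the called AP-1 genes. It had 167, 145 and 148 CPM in cultured replicates 1 to 3, against 1480.4, 1301, 1979.9, 901 and 937 CPM in fresh replicates 1 to 5. The cultured libraries agreed within 1.15-fold, the narrowest spread in culture among the 9 tested genes. Fosl2 fell by 2.58 ± 0.23 on the log2 scale, 5.99-fold (edgeR adjusted p = 0.000238), and its log2 fold change was -3.31 against the run-1 fresh libraries alone. It lies on the plus strand of chromosome 5, 32135801 to 32157842.

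In the Jun family, which supplies the partners of Fos proteins, Jun and Junb fell and Jund did not pass the test. Jun, the most abundant Jun gene per length in both groups, had 157, 111 and 87.7 CPM in cultured replicates 1 to 3, against 2057, 1508, 869, 2356 and 2111 CPM in fresh replicates 1 to 5. Every cultured library was at least 5.54-fold below every fresh one, and fresh replicate 3 was the lowest of the fresh. The log2 fold change was -4.24 ± 0.39, 18.8-fold lower (edgeR adjusted p = 0.000271), and -3.59 against the run-1 fresh libraries alone. Jun lies on the minus strand of chromosome 4, 95049034 to 95052222, and overlaps the antisense RNA gene Junos. Junos had 11.5, 2.01 and 1.12 CPM in cultured and 2.54 to 6.67 CPM in fresh libraries and did not pass the test (edgeR adjusted p = 0.638).

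Junb, whose protein activates many AP-1 sites less strongly than Jun, had 12.6, 12.1 and 7.39 CPM in cultured replicates 1 to 3, against 358, 269, 249.7, 288 and 376 CPM in fresh replicates 1 to 5. The fresh libraries agreed within 1.50-fold, and the groups were at least 19.7-fold apart. Junb fell by 4.95 ± 0.33 on the log2 scale, 31.0-fold (edgeR adjusted p = 6.56e-05). It lies on the minus strand of chromosome 8, 84974484 to 84978718, and overlaps Prdx2 on the other strand. Prdx2 had 19.5 to 74.7 CPM in cultured and 39.2 to 65.1 CPM in fresh libraries and did not pass the test (edgeR adjusted p = 0.855).

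Jund, whose product is the steadiest Jun protein of resting cells and is not a typical immediate early gene, had 13.8, 0.978 and 36.0 CPM in cultured replicates 1 to 3, against 121, 71.9, 48.5, 118 and 119 CPM in fresh replicates 1 to 5. All cultured libraries were below all fresh ones, but only by 1.35-fold at the nearest pair, and the cultured libraries spread over a 36.8-fold range. The log2 fold change was -2.81 ± 1.01 and did not pass (edgeR adjusted p = 0.0694). It was called in 6 of 19 alternative settings, among them those without cultured replicate 2 (-2.22, adjusted p = 0.0263) and without cultured replicate 3 (-4.04, adjusted p = 0.0221), and over all 19 the adjusted p ran between 0.0181 and 0.195. Jund lies on the plus strand of chromosome 8, 70698949 to 70700616. The antisense gene Gm11175 overlaps it and held 26, 5 and 0 counts in the cultured libraries and 0, 30, 0, 0 and 84 in the fresh ones.

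The same stretch is shown for Jun and Junb, since the promoter of Jun is known to be bound by Jun and ATF proteins at a TRE-like site, TGACATCA. The stretches are chr4:95052223-95052372 for Jun and chr8:84978749-84978898 for Junb, both on the minus strand, from RefSeq (GRCm38.p6). Capitals mark TGACATCA in Jun and TGACG in Junb.
Jun: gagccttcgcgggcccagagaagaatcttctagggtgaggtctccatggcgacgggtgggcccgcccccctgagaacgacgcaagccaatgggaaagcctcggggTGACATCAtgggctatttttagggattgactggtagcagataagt
Junb: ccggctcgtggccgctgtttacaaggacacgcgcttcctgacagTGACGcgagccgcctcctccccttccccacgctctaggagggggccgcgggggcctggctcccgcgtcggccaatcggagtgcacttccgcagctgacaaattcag
The match in Jun lay 45 to 38 bases before the start, and that in Junb 106 to 102 bases before it.

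Of the subunits outside both families, Atf3 and Maff fell. Atf3, a stress-induced factor that pairs with Jun and can repress its targets, had 8.33, 3.29 and 6.01 CPM in cultured replicates 1 to 3, against 829, 674, 651, 609 and 569 CPM in fresh replicates 1 to 5. The fresh libraries agreed within 1.46-fold, and the lowest of them stood 68.4-fold above the highest cultured one. The log2 fold change was -6.65 ± 0.40, 100.1-fold lower (edgeR adjusted p = 4.84e-05). Atf3 lies on the minus strand of chromosome 1, 191170296 to 191218039. It overlaps the RNA gene Gm24748 on the other strand, whose level was not examined. The RefSeq start of Atf3 used here lies inside the span of Atf3. The 150 bases before it, chr1:191183334-191183483 on the minus strand (RefSeq, GRCm38.p6), held the half-site only at the edge, 7 to 3 bases before the start, read on the other strand and shown in capitals.
Atf3: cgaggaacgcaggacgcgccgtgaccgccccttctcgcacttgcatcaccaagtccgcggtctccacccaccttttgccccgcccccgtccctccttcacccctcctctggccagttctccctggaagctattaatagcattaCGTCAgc

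Maff encodes a small Maf protein, which has no activation domain of its own and partners the NRF and BACH factors. It had 17.7, 20.6 and 55.3 CPM in cultured replicates 1 to 3, against 613, 453, 421, 252 and 284 CPM in fresh replicates 1 to 5. Cultured replicate 3 was the highest of the cultured libraries and still 4.56-fold below the lowest fresh one. Maff fell by 3.10 ± 0.47 on the log2 scale, 8.59-fold (edgeR adjusted p = 0.00251), by 3.79 without cultured replicate 3 and by 3.91 against the run-1 fresh libraries alone. It lies on the plus strand of chromosome 15, 79346621 to 79359076.

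Batf, a factor best known in lymphocytes, was close to undetected. It had 1, 0 and 0 counts in cultured replicates 1 to 3, against 16, 12, 9, 0 and 0 counts in fresh replicates 1 to 5. All fresh counts were in run 1. The ratio of cultured to run-1 fresh levels was 0.0229, with a 95% counting interval of 0.000565 to 0.136, while cultured and run-2 fresh libraries held 1 and 0 counts and allow no fold. Against 3 counts over the run-2 fresh libraries (0.0962 CPM), a count of 0 there is a level at least 7.82-fold lower than in run 1. These intervals cover counting error only. Run-1 fresh libraries also held counts for more genes of any kind, 32710 to 34689 against 20480 to 20898 in run 2.

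Batf, Fos and Jdp2 are the only protein-coding genes in their stretch of chromosome 12. Jdp2 (85599027 to 85639878), whose protein dimerizes with Jun and represses, starts 122 kb after the end of Fos, and Batf (85686669 to 85709087) starts 46.8 kb after the end of Jdp2. Jdp2 had 9.48, 4.32 and 4.69 CPM in cultured and 10.1 to 16.3 CPM in fresh libraries, and its log2 fold change of -1.10 ± 0.63 did not pass the test (edgeR adjusted p = 0.232).

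The fold changes of the 8 called genes kept their direction and their call in all 19 alternative settings tried, and the median over all genes tested was -0.21. With no scaling factors the median of all genes shifted by 0.41, and 46.2% of called genes were higher, against 33.0% with TMM factors. All 7 genes that fell remained at or under -2.18 in every setting, which was the value of Fosl2 with no scaling factors.

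**Figure D2:**
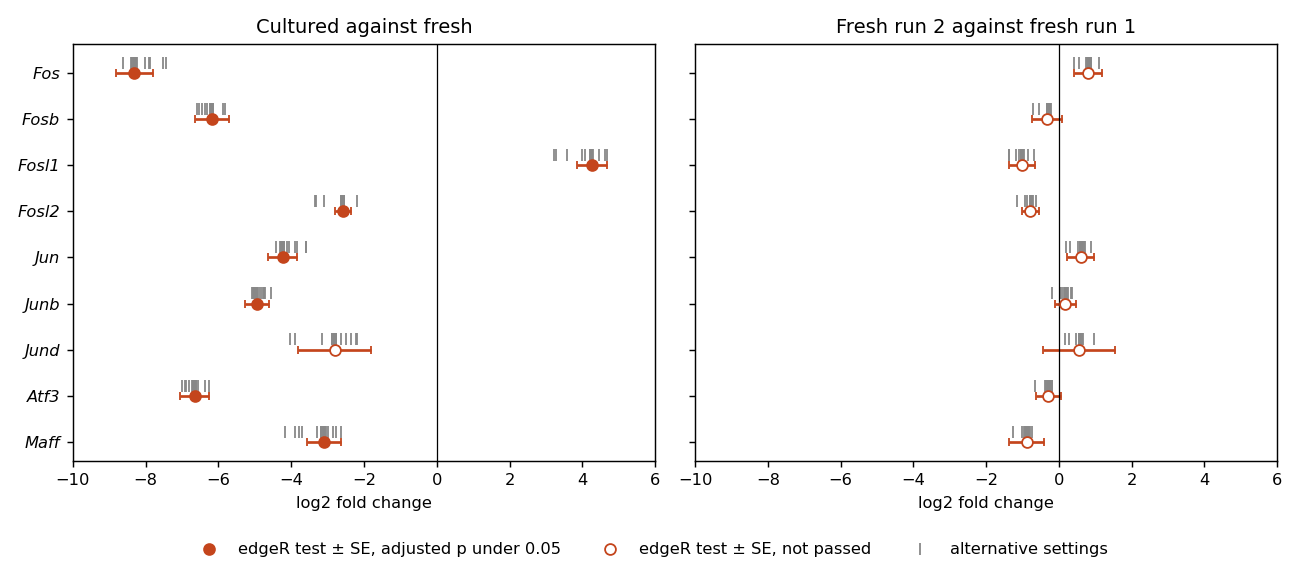
Log2 fold changes of the 9 tested AP-1 genes, cultured against fresh (left) and run-2 against run-1 fresh (right), with SE bars. Filled points passed an edgeR adjusted p of 0.05, open points did not, and grey ticks are the alternative settings. Fosl1 is the only gene right of 0 in culture, and no point is filled on the right.

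Dividing CPM by exon length in kb puts different genes on a common scale if counts grow with that length, which was not tested here. In cultured cells Fosl1 was the most abundant subunit transcript at 311 ± 94.3 CPM per kb, apart from Jun at 37.2 ± 11.0, which was apart from Fosl2 at 15.8 ± 1.26 CPM per kb. The range of Fosl2 overlapped that of Maff (12.0), and Maff, Jund (10.1), Fosb (6.30), Fos (4.74), Junb (4.65) and Atf3 (2.73 CPM per kb) each overlapped the next in range. In fresh cells Fos led at 1123 ± 423 CPM per kb, and its range overlapped that of Jun (558 ± 187), which overlapped Fosb (527 ± 119). Atf3 followed at 309 ± 46.1 CPM per kb, apart from Fosb, but its range of 264 to 385 overlapped that of Jun, 272 to 739 CPM per kb. Maff (156), Fosl2 (136) and Junb (134 CPM per kb) overlapped one another, and Jund (57.3) overlapped Fosl1 (26.2 CPM per kb), the lowest of the tested subunits. Batf was last in both groups at 0.0125 CPM per kb in cultured and 0.320 CPM per kb in fresh cells.

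The summed level of the 10 genes was 512, 382 and 318 CPM per kb in cultured replicates 1 to 3, against 3547, 2760, 2089, 3410.4 and 3328 CPM per kb in fresh replicates 1 to 5. Every cultured sum was below every fresh one. Fosl1 made up 79.4, 80.4 and 68.4% of that sum in the cultured libraries, against 0.865, 0.969, 1.97, 0.358 and 0.609% in the fresh ones. Fos made up 0.968, 1.71 and 0.864% in the cultured libraries, against 34.4, 29.6, 26.9, 45.3 and 44.1% in the fresh ones. The AP-1 transcripts of cultured cells were thus mostly Fosl1, and those of fresh cells were spread over Fos, Fosb, Jun and Atf3. The share of Jun was 9.60, 9.13 and 8.64% in cultured and 18.2, 17.1, 13.0, 21.7 and 19.9% in fresh libraries. Fos family transcripts exceeded Jun family transcripts 6.97, 8.15 and 4.63 times in cultured and 2.24 to 2.96 times in fresh libraries. Jund made up 13.1, 1.44 and 41.3% of Jun family transcripts in cultured libraries, against 6.81 to 8.27% in fresh ones. These sums and shares are descriptions and were not tested.

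**Figure D3:**
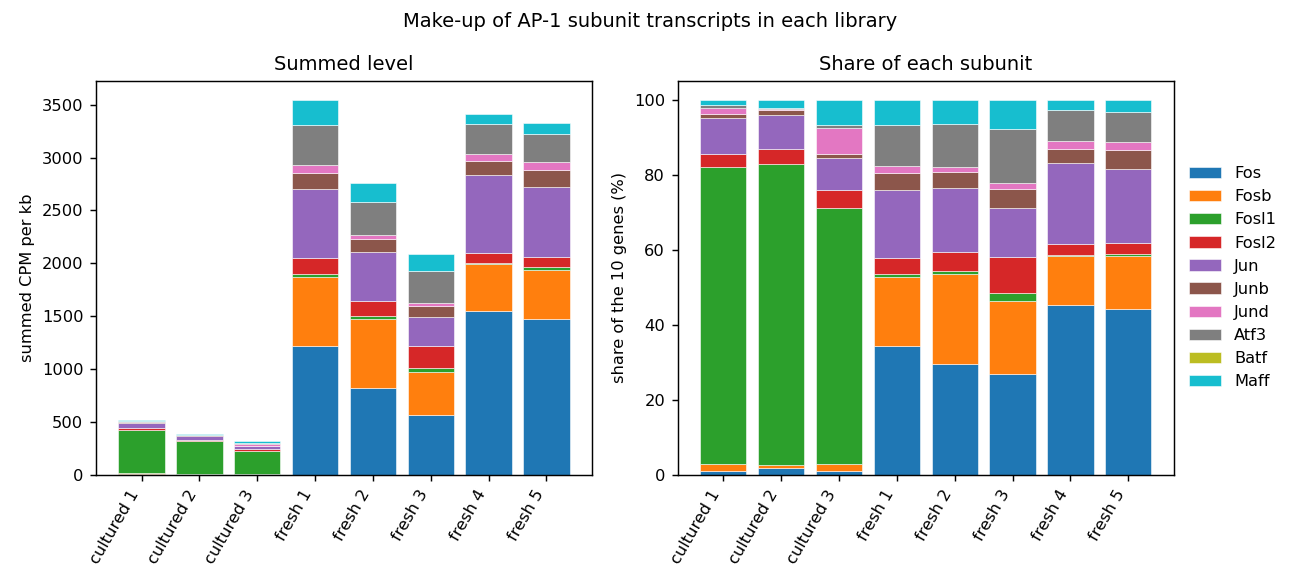
Summed CPM per kb of the AP-1 subunit genes (left) and the share of each subunit in that sum (right), for each library, with cultured libraries left of fresh ones. Fosl1 fills 68.4 to 80.4% of the cultured bars and at most 1.97% of the fresh ones.

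Ranked per length among 18280 tested genes with a known length, Fosl1 stood at 119, 141 and 190 in the cultured libraries, against 1088, 1156, 797, 2948 and 1712 in the fresh ones. Fos stood at 5896, 5110 and 7763 in the cultured libraries, against 34, 50, 76, 31 and 37 in the fresh ones. The ranks of both genes in cultured libraries lay wholly apart from those in fresh ones, in opposite directions. Jun stood at 974, 1164 and 1492 in cultured libraries, against 69 to 143 in fresh ones, and Atf3 stood at 6539, 9363 and 7724 in cultured and 120 to 178 in fresh libraries.

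The fresh libraries of the 2 runs allow the same genes to be compared without culture. None of the 9 tested subunits was called between run-2 and run-1 fresh libraries, and 36 of all genes tested were (0.189%, with 0.0945% in each direction; 15.5% had an unadjusted p under 0.05). Without a call, the subunits still lay in different directions. Fos had 3634 and 3456 CPM in run-2 and 2869.8, 1922 and 1319.6 CPM in run-1 fresh libraries, a log2 fold change of 0.80 ± 0.39 (edgeR adjusted p = 0.394). Fosl1 had 24.8 and 41.2 CPM in run-2 and 62.4, 54.4 and 83.8 CPM in run-1 fresh libraries (-1.02 ± 0.35, adjusted p = 0.184, unadjusted p = 0.0188, edgeR). Fosl2 had 901 and 937 CPM in run-2 and 1480.4, 1301 and 1979.9 CPM in run-1 fresh libraries (-0.79 ± 0.23, adjusted p = 0.110, unadjusted p = 0.00832, edgeR). These 3 genes did not overlap between the runs. In all, 2 of the 9 genes (Fos and Jun) were higher in both run-2 libraries than in any of run 1, as were 18.5% of all genes tested, and 4 (Fosl1, Fosl2, Atf3 and Maff) were lower, as were 29.5%. In a fit of the fresh libraries alone, 21.5% of 21313 genes were called, among them Fosl1 (-0.98, edgeR adjusted p = 0.0458), Fosl2 (-0.75, edgeR adjusted p = 0.0486), Maff (-0.85, edgeR adjusted p = 0.0357) and Batf. Run 1 and run 2 also differed in genes detected and in mitochondrial ribosomal RNA, which took 23.2 to 26.5% of counts in run-2 and 5.25 to 10.5% in run-1 fresh libraries, and the part of these in the differences was not tested.

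Promoter windows were found in RefSeq for 9 of the 10 genes (11 windows), Fosl1 being the missing entry. Motifs were searched on both strands in the 250 bases before each start and in 32851 such windows of all genes. The half-site TGACG was present for 6 of the 9 genes (Fos, Fosb, Junb, Atf3, Batf and Maff) and in 17.8% of all windows, where the first count is per gene, with 3 windows for Maff, and the percentages here are per window. The full CRE, TGACGTCA, which holds the half-site on both strands, was present only for Maff, 29 to 22 bases before its start, and in 1.55% of all windows. TGACATCA was present for Jun and Maff and in 2.93% of all windows. The TRE, TGANTCA, was in 6.75% of all windows and the CArG box of serum response factor in 1.47%, and neither was in these windows of the 9 genes. The bases searched for Jund end at 70697738 on chromosome 8, before the GENCODE span of the gene, which starts at 70698949. Those for Fosl2 end at 32136471 on chromosome 5, inside its span. A match is a string of letters and not a bound site, and no match says nothing about binding elsewhere.

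**Figure D4:**
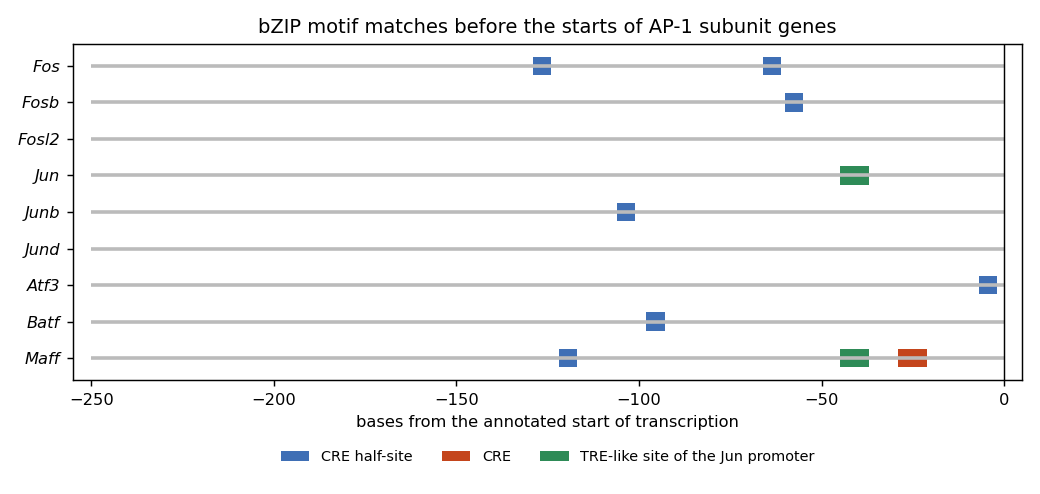
Matches to CRE and TRE-like motifs in the 250 bases before the RefSeq start of 9 AP-1 genes, by distance from the start in bases. Maff has 3 annotated starts, and its matches are drawn on 1 line, each at the distance from its own start. Fos has 2 half-site matches, and Fosl2 and Jund have none of the motifs drawn. The RefSeq start used for Jund lies before the GENCODE span of the gene, and that of Fosl2 inside it.

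Other genes of the pathway were grouped into lists, and each is read beside the shares of all genes called (18.0% lower, 8.87% higher) and their median of -0.21. Among 11 tested relatives and dimer partners of the subunits, 4 fell and none rose (median log2 fold change -1.10). Bach2, a repressor that pairs with small Maf proteins, had 0, 0.823 and 0.662 CPM in cultured replicates 1 to 3 and 48.7 to 71.7 CPM in fresh libraries (-6.97 ± 0.96, adjusted p = 0.00165, edgeR). It was -6.33 without cultured replicate 1. Mafk, another small Maf, had 66.4, 53.0 and 18.7 CPM in cultured and 285 to 495 CPM in fresh libraries (-2.86 ± 0.46, adjusted p = 0.00343, edgeR). Bach1, a heme-regulated repressor, also fell (-1.55 ± 0.35, adjusted p = 0.0124, edgeR). Atf2, Atf4, Atf7, Mafg and Nfe2l2 were not called and had fold changes between -0.51 and 0.51 on the log2 scale, and Batf2 and Batf3 were not tested.

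Of 24 MAP kinase pathway genes upstream of AP-1, 2 rose, 4 fell and 18 did not pass (median -0.32). Map2k3, a kinase that activates p38, had 279, 278 and 258 CPM in cultured and 36.9 to 78.5 CPM in fresh libraries (2.82 ± 0.25, adjusted p = 0.000245, edgeR), and its value was 2.06 against run-1 fresh libraries alone. Mapk13, a p38 gene, was the other that rose, at 0.685, 8.03 and 2.75 CPM in cultured libraries and 0 in both run-2 fresh libraries, at least 39.9-fold higher against 3 counts over those libraries. It had 0.228, 0.134 and 0.12 CPM in run-1 fresh libraries, and the lowest cultured library stood 3.01-fold above the highest fresh one. Mapk10, the JNK gene best known in neurons, fell to 0, 0.463 and 0 CPM in cultured libraries, against 7.55 to 25.9 CPM in fresh ones (-7.31 ± 1.46, adjusted p = 0.00733, edgeR). Without cultured replicates 1 and 3 in turn its values were -6.69 and -6.70, and against run-1 fresh libraries alone -5.98. Without cultured replicate 2 no cultured counts of Mapk10 remained, and the value of -11.79 depends on the prior count. Map3k5, which encodes the stress kinase ASK1, had 0, 8.03 and 1.22 CPM in cultured and 67.0 to 81.8 CPM in fresh libraries (-4.71 ± 1.30, adjusted p = 0.0272, edgeR). Its call ended without fresh replicate 1, 4 or 5 or cultured replicate 3 (adjusted p = 0.0511, 0.0894, 0.0918 and 0.0625, edgeR) and in run 2 alone (adjusted p = 0.114), and its value was -4.06 without cultured replicate 1 and -6.97 without cultured replicate 2. Map2k7, a kinase of JNK, had 15.8, 34.9 and 18.1 CPM in cultured and 51.1 to 84.4 CPM in fresh libraries (-1.18 ± 0.38, adjusted p = 0.0474, edgeR), a call that ended in 11 of 19 settings, among them each that left out 1 library other than cultured replicate 2 (adjusted p = 0.0802 to 0.196, edgeR). Map2k6 was the fourth that fell. The main JNK kinases Mapk8 and Mapk9 and the p38 gene Mapk14 were not called, with values of -0.51, -0.43 and 0.32.

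Among 12 factors that bind the promoters of AP-1 genes, 1 rose and 1 fell (median -0.44). Elk3, a partner of serum response factor, had 141, 94.7 and 193 CPM in cultured and 30.0 to 52.7 CPM in fresh libraries (1.68 ± 0.38, adjusted p = 0.0125, edgeR). Its call ended without fresh replicate 4 or 5 (adjusted p = 0.0762 and 0.0741). Stat3, the cytokine-activated factor, had 177, 79.3 and 32.6 CPM in cultured and 342 to 881 CPM in fresh libraries (-1.97 ± 0.56, adjusted p = 0.0299, edgeR). Its call ended without fresh replicate 4 or 5 or cultured replicate 2 (adjusted p = 0.0824, 0.122 and 0.0594) and in run 2 alone (adjusted p = 0.0867), and its value was -2.69 without cultured replicate 1 and -2.85 against run-1 fresh libraries alone. Srf itself had 68.0, 68.1 and 31.0 CPM in cultured and 82.0 to 119 CPM in fresh libraries and did not pass (-0.61 ± 0.35, adjusted p = 0.229, edgeR), and neither did Creb1 (-0.69 ± 0.32, adjusted p = 0.140, edgeR).

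Of 10 genes for turnover and cofactors of AP-1 proteins, 2 rose and 1 fell (median -0.08). Cops5, also known as Jun activation domain-binding protein, had 199.7, 133 and 91.4 CPM in cultured and 26.2 to 41.6 CPM in fresh libraries (2.04 ± 0.41, adjusted p = 0.00748, edgeR), with an adjusted p of 0.0558 without fresh replicate 5. Ncoa1, a coactivator that AP-1 can recruit, had 33.0, 48.9 and 79.4 CPM in cultured and 386 to 614 CPM in fresh libraries (-3.51 ± 0.36, adjusted p = 0.000443, edgeR). Det1, part of a ligase that marks Jun for degradation, was the other gene that rose, at 11.8, 13.2 and 10.4 CPM in cultured and 1.07 to 3.13 CPM in fresh libraries (3.12 ± 0.81, adjusted p = 0.0216, edgeR).

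Of 6 factors that act on AU-rich elements, the stretches that make immediate early mRNAs short-lived, 3 fell and 2 rose (median -0.29). Those that fell were the Zfp36 genes, which speed decay, and Khsrp, another decay factor, was not called (1.07 ± 0.35, adjusted p = 0.0530, edgeR). Zfp36 had 33.3, 42.0 and 40.3 CPM in cultured and 3256 to 5009.6 CPM in fresh libraries (-6.44 ± 0.26, adjusted p = 1.07e-05, edgeR). Zfp36l1 had 61.6, 132 and 109 CPM in cultured and 436 to 914 CPM in fresh libraries (-3.16 ± 0.32, adjusted p = 0.000434, edgeR), and its value was -2.27 against run-1 fresh libraries alone. Zfp36l2 depended on the run, with 116, 292 and 188 CPM in cultured, 623 and 583 CPM in run-2 fresh and 167, 125 and 253 CPM in run-1 fresh libraries. Its value was -1.60 ± 0.40 (adjusted p = 0.0185, edgeR), but 0.21 against run-1 fresh libraries alone, and the call ended without fresh replicate 4 or 5 or cultured replicate 3 (adjusted p = 0.102, 0.0791 and 0.0517, edgeR). Hnrnpd, which encodes AUF1, had 451, 364 and 296 CPM in cultured and 99.7 to 149.9 CPM in fresh libraries (1.41 ± 0.28, adjusted p = 0.00684, edgeR). Elavl1, which encodes the stabilizing protein HuR, had 118, 173 and 102 CPM in cultured and 60.6 to 70.8 CPM in fresh libraries (1.02 ± 0.29, adjusted p = 0.0323, edgeR), a call that ended in 9 of 19 settings, among them each that left out 1 library other than cultured replicate 1 or 3 (adjusted p = 0.0539 to 0.155, edgeR).

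Of 17 tested genes known as AP-1 targets, 10 rose and 2 fell (median 1.60). Hmox1, heme oxygenase 1, had 789, 927 and 944 CPM in cultured and 10.4 to 25.4 CPM in fresh libraries (5.70 ± 0.42, adjusted p = 0.000127, edgeR), and its value was 6.46 without fresh replicate 4. Plaur, the urokinase receptor, had 118, 46.0 and 61.3 CPM in cultured and 2.72 to 11.4 CPM in fresh libraries (4.60 ± 0.63, adjusted p = 0.00154, edgeR), and its value was 3.04 against run-1 fresh libraries alone. Lgals3, the lectin galectin-3, had 18.0, 42.1 and 41.2 CPM in cultured and 0.884 to 2.80 CPM in fresh libraries (4.30 ± 0.83, adjusted p = 0.00652, edgeR), and its value was 5.27 without fresh replicate 5. The cytokine gene Il6 and the phosphatase gene Dusp1 fell. Il6 had 0 counts in all cultured libraries and 6.67 to 42.3 CPM in fresh ones, at least 684-fold lower than in run 2 against 3 counts over the cultured libraries (edgeR adjusted p = 0.00135). Dusp1, itself an immediate early gene that switches MAP kinases off, had 84.2, 56.9 and 100.3 CPM in cultured and 1061 to 1869.9 CPM in fresh libraries (-4.38 ± 0.29, adjusted p = 6.56e-05, edgeR). The protease genes Mmp3, Mmp10 and Mmp13 were not tested.

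Among 20 other immediate early genes, 14 fell and none rose (median -3.35). Nr4a1, an orphan nuclear receptor, had 1.74, 10.7 and 4.03 CPM in cultured and 670.5 to 1076 CPM in fresh libraries (-7.34 ± 0.70, adjusted p = 0.000314, edgeR), and its value was -8.24 without cultured replicate 2. Egr2, a zinc finger factor, had 0, 0.772 and 10.4 CPM in cultured and 411 to 529 CPM in fresh libraries (-7.09 ± 1.44, adjusted p = 0.00762, edgeR). Its value was -6.45 without cultured replicate 1 and -10.31 without cultured replicate 3. Not every gene of the class moved. Myc had 890, 974 and 750.4 CPM in cultured and 576 to 1073 CPM in fresh libraries (-0.27 ± 0.22, adjusted p = 0.418, edgeR).

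Of 12 heat shock genes, which cell dissociation is known to induce, 8 fell and 1 rose (median -2.22). Hspa1b had 8.64, 26.5 and 9.94 CPM in cultured and 333 to 2164 CPM in fresh libraries (-7.04 ± 0.60, adjusted p = 0.000188, edgeR), and its value was -7.72 without cultured replicate 2 and -4.83 against run-1 fresh libraries alone. Dnajb1, a cochaperone, had 20.3, 55.9 and 35.7 CPM in cultured and 2152 to 4432 CPM in fresh libraries (-6.34 ± 0.50, adjusted p = 0.000143, edgeR). Hspa1a, a near-identical copy of Hspa1b whose reads could have been divided between them, had 91.8, 67.9 and 74.6 CPM in cultured and 2011 to 4924 CPM in fresh libraries (-5.90 ± 0.32, adjusted p = 2.42e-05, edgeR), and its value was -4.99 against run-1 fresh libraries alone. Hspd1, the mitochondrial chaperonin, rose, at 1171, 934 and 962 CPM in cultured and 272 to 401 CPM in fresh libraries (1.60 ± 0.24, adjusted p = 0.00262, edgeR). No gene of these lists was called between the runs in the fit of all 8 libraries.

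**Figure D5:**
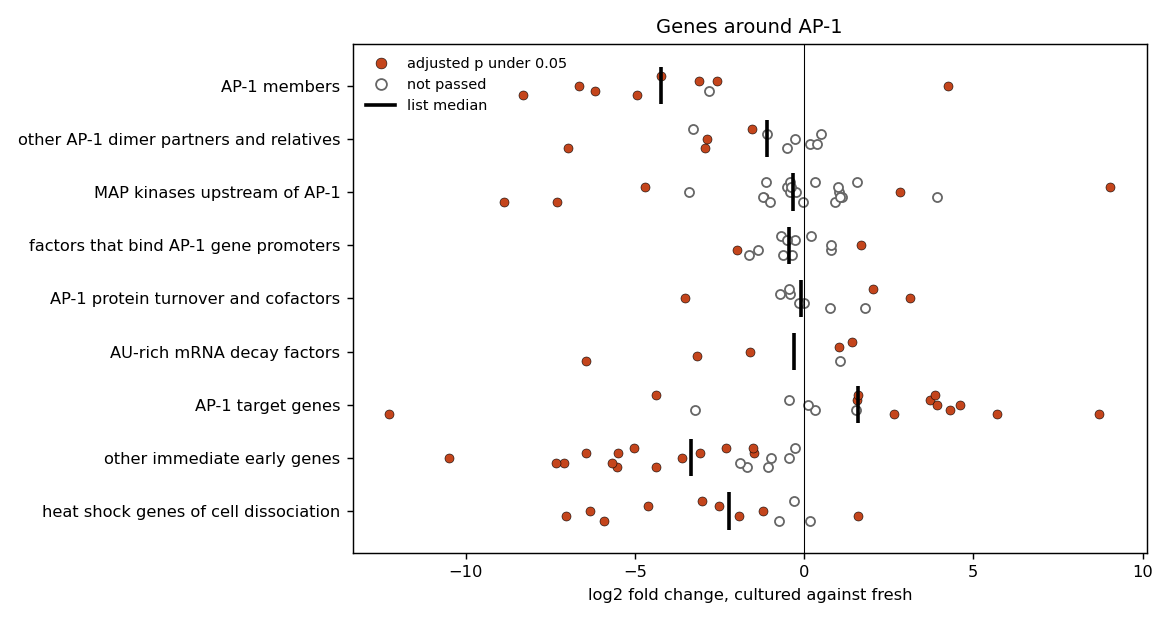
Log2 fold change, cultured against fresh, of each tested gene in the lists around AP-1, with 1 row per list and a bar at its median. Filled points passed an edgeR adjusted p of 0.05, and values of genes with 0 counts in a group depend on the prior count. The AP-1 members and other immediate early genes have medians of -4.24 and -3.35, and the AP-1 targets 1.60.

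The genes whose log2 CPM followed Fos most closely over the 8 libraries, among 8071 genes with a mean of at least 10 CPM, were Ank3 (Pearson r = 0.9978), Pdgfrl (0.9965), Junb (0.9965), Ssc5d (0.9955) and Peg3 (0.9954). Ank3, the ankyrin-G gene, had 26.6 to 38.4 CPM in cultured and 336 to 589.6 CPM in fresh libraries. Those most like Fosl1 were Hmga1 (0.9905), Sept11 (0.9902), Gtpbp4 (0.9897), Lrrc59 (0.9887) and Wdr12 (0.9882). Hmga1, which encodes a chromatin protein of growing cells, had 539, 303 and 219.9 CPM in cultured and 2.84 to 10.1 CPM in fresh libraries. These coefficients describe the 8 libraries, which form 2 separate groups and share the same culture contrast.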

How the data were processed

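Per the labels' protocols, Illumina libraries were made from cDNA that a NuGEN Ovation kit had amplified. STAR, RSEM and the build mm10 were used, per the submitters' processing notes. No source used here states their versions, the annotation or whether strand was used. The authors deposited expected counts per gene for 8 libraries, on 45798 lines. The 92 spike-in lines (40.9 counts in all) were left out. Of the values above 0, 50.1% were not whole, and all were rounded. RSEM divides reads that fit several genes, so overlapping genes and near-identical copies are uncertain.

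Genes were kept by filterByExpr with culture as the group, which left 19054. Counts were tested with edgeR 4.0.16 (R 4.3.3), with TMM factors (0.790 to 1.18), the quasi-likelihood test, run and culture as terms, 5 residual degrees of freedom and Benjamini-Hochberg adjustment over all genes at 0.05. The culture term compares cultured with run-2 fresh libraries, and the run term run-2 with run-1 fresh libraries. SEs were back-calculated from fold changes and test statistics and are approximate. CPM use the scaled library size, and lengths are exon unions of GENCODE M21, which matched 42782 identifiers. Where a group held no counts, folds are bounds against 3 counts over the group, which leave the list medians as given. Libraries carry no molecular identifiers that the labels mention, so counting intervals cover counting error only. No 2 libraries were duplicates within counting noise. Alternatives used DESeq2 1.42.0, limma 3.58.1, other scalings, filters, terms and subsets of libraries. The procedure was tested on simulated data. Promoter sequences are from RefSeq (GRCm38.p6).

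The members and lists were chosen with earlier results of these data known. Named are all members, in each list up to 3 genes called per direction with the largest fold change and a mean of at least 10 CPM, and the 5 genes most like Fos and Fosl1, passing over predicted genes. Named after their values were seen were Jdp2, Bach1, Mapk13, Map2k6, Mapk8, Mapk9, Mapk14, Det1, Myc, Srf, Creb1, the overlapping genes and the genes listed as not called or not tested. A gene that this rule takes is not reported here.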

Additional observations from a re-analysis of the deposited data

How the results depend on the processing

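The 8 called AP-1 genes kept their direction and call in all 19 settings tried for culture, and 1 of these, a filter set by run and culture together, was chosen after seeing the data. Of all genes tested, 5122 were called for culture. The count was 2780 in run 2 alone, 2482 with a replicate block and 3337 to 6163 when 1 library was left out (lowest without fresh replicate 5, 3402 without fresh replicate 4). Replicate numbers do not pair the samples: same-numbered cultured and fresh libraries deviated with correlations of 0.0296, 0.0103 and 0.0108. The block, which sets cultured against run-1 fresh libraries, ended, among the list genes named, the calls of Mapk10 (adjusted p = 0.0517) and Elavl1 (0.0749, both edgeR). Zfp36l2 turned direction, to 0.21 against run-1 fresh libraries and 0.08 with the block. It was not called with no term for run (-0.82) or with no scaling factors (-1.15). The cause was not tested.

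Between the runs, 36 genes were called. The count was 81 with no filter, 903 with DESeq2, 1371 with limma voom, 4574 in fresh libraries alone and 1 to 117 when 1 library was left out (17, 16, 3 and 1 without fresh replicates 1, 2, 4 and 5, and 117 without cultured replicate 1). AP-1 genes called between the runs were 0 in all settings but fresh libraries alone, where they were 4. That fit estimates the spread from fresh libraries only, and the cause was not tested. Batf counts were at most 16 per library, too few for a test of culture.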
